A study of Mus musculus with 8 samples.

Results

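The genes described here are 43 markers of the subfields of the mouse hippocampus (CA1, CA2, CA3 and the dentate gyrus), out of 34094 genes in the deposited table. They were taken by symbol, and all 43 are in the table. They comprise 9 genes listed for CA1, 3 found broadly in hippocampal principal neurons, 5 for CA2, 11 for CA3 or for CA3 and CA2 together, and 15 for dentate granule cells. The libraries are 4 from conditional knockout (cKO) mice, whose titles give cko type (Brpf1 knockdown), and 4 from wild-type (WT) mice, all C57BL/6 of 2 months. Brpf1 encodes a scaffold of histone acetyltransferase complexes. The labels give no Cre driver, and they tie no library to an animal while the protocol speaks of 3 pairs of mice. The p-values below therefore rest on a spread among libraries that can include technical variation. The source label of all 8 libraries is hippocampal CA1, while the titles say only hippocampus tissue, so these genes also serve as a gauge of what each dissection held.

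In the hippocampal circuit, granule cells of the dentate gyrus send mossy fibres to CA3 pyramidal neurons, CA3 sends Schaffer collaterals to CA1, and CA2 is a small field between CA3 and CA1 linked to social memory. Each field has its own set of transcription factors, adhesion molecules and calcium-binding proteins, which is why single genes can serve as markers. CA1 borders the dentate gyrus across the hippocampal fissure and CA2 along the pyramidal layer, so a CA1 dissection can take in RNA of its neighbours. In bulk tissue, fewer cells of a type and less RNA per cell cannot be told apart.

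Reads on genes ranged from 40330226 to 46559795 in cKO libraries and from 42346644 to 49897832 in WT libraries. Expression is given as normalized reads, which are the reads of a gene after division by the size factor that the authors used for the library, and log2 values are log2(normalized reads + 1). Brpf1 had 848 to 1032 normalized reads in cKO libraries and 1358 to 1473 in WT libraries, with a log2 fold change of −0.59 and a limma adjusted p of 0.132. Among genes of surrounding tissue, the summed normalized reads of 7 choroid plexus genes ranged from 10455 to 46884 in cKO libraries and from 5165 to 163239 in WT libraries, and those of 5 thalamic genes from 2340 to 3307 and from 2560 to 3933. The sum of 5 cortical genes ranged from 5115 to 7064 in cKO libraries and from 5075 to 6046 in WT libraries. At each of these lists the ranges overlapped. Log2 fold changes of cKO against WT were negative at 7 of 7 choroid plexus genes (median −0.72), 5 of 5 thalamic genes (median −0.25), 4 of 5 striatal genes (median −0.072), 3 of 5 cortical genes (median −0.00030) and 2 of 2 genes of hilar mossy cells (median −0.25), with 0 past the test. Their part in the marker values below was not tested.

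All 43 markers had reads in every library, those of the dentate gyrus, CA3 and CA2 included. Levels were compared between genes only as normalized reads per kb of exon, with lengths from the GENCODE M21 annotation. The median gene of the CA1 list was at 528 per kb in cKO libraries and 530 per kb in WT libraries. The median dentate gene was at 285 per kb in cKO libraries and 299 per kb in WT libraries, and the median gene of the CA3 list at 135 and 169 per kb. Prox1, the homeobox factor that specifies granule cells, averaged 546 per kb in cKO libraries and 582 per kb in WT libraries. Wfs1, an endoplasmic reticulum protein gene that marks dorsal CA1, averaged 705 and 744 per kb. Libraries of other subfields were not analysed here, so these levels were not converted into shares of tissue.

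**Figure D1:**
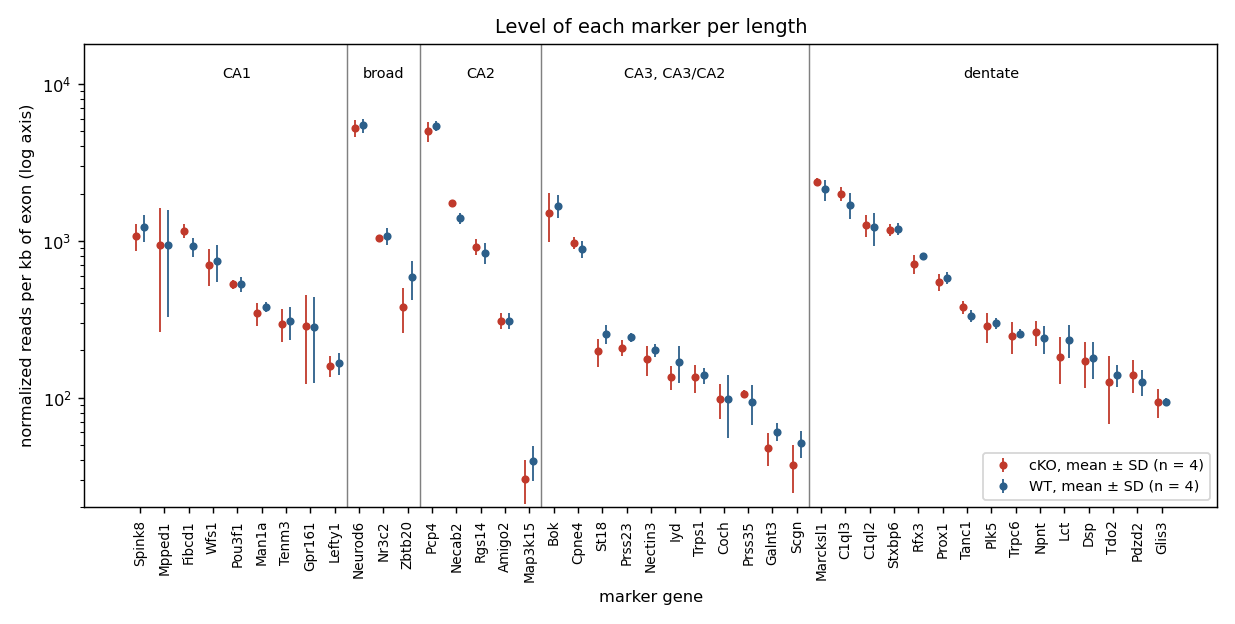
Level of each marker in normalized reads per kb of exon (log axis), by subfield list, as the mean ± SD of 4 cKO (red, left) and 4 WT (blue, right) libraries. Marcksl1 of the dentate list (2383 per kb in cKO, 2125 in WT) lies above Fibcd1 of the CA1 list (1159 in cKO, 922 in WT). The median dentate gene (285 in cKO, 299 in WT) lies below the median CA1 gene (528 in cKO, 530 in WT). The CA2 list runs from Map3k15 (30.5 in cKO, 39.4 in WT) to Pcp4 (4998 in cKO, 5400 in WT).

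No subfield marker passed the comparison of cKO with WT across all genes. By limma with Benjamini-Hochberg adjustment, 0 of 43 had an adjusted p under 0.05, where 0.0191% of the 26135 genes tested did. By limma-voom on the recovered reads the count was also 0 of 43, against 0.0153% of all genes. At an unadjusted p under 0.05 there were 4 members, against 8.67% of all genes tested, which puts 4 of 43 near the background. Fibcd1 and Necab2 were the 2 higher in cKO (background 4.07%), and Zbtb20 and St18 the 2 lower (background 4.6%). Groups did not overlap at 2 of 43 members, where 4.92% of all genes tested did not overlap. Both were higher in cKO (background 2.57%), and 0 were lower (background 2.35%). In the authors' deposited table a single member, Necab2, has an FDR under 0.05, against 0.657% of all genes.

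Log2 fold changes of cKO against WT lay within 0.4 of 0 at 41 of the 43 members. About 19080 of the 26135 genes tested also did. The 41 include Gpr161 (95% interval −2.13 to 2.15) and Mpped1 (−1.94 to 1.79), whose intervals reach far beyond 0.4. The median was −0.060 over the 43 members, −0.060 over the CA1 list, −0.0066 over CA2, −0.22 over CA3 and −0.025 over the dentate list, beside −0.018 over all genes tested. Over the broadly expressed genes it was −0.055. Negative values were seen at 30 of 43 members, or 69.8%, beside 52.7% of all genes tested. They were 7 of 9 CA1 genes, 3 of 3 broadly expressed genes, 3 of 5 CA2 genes, 8 of 11 CA3 genes and 9 of 15 dentate genes.

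**Figure D2:**
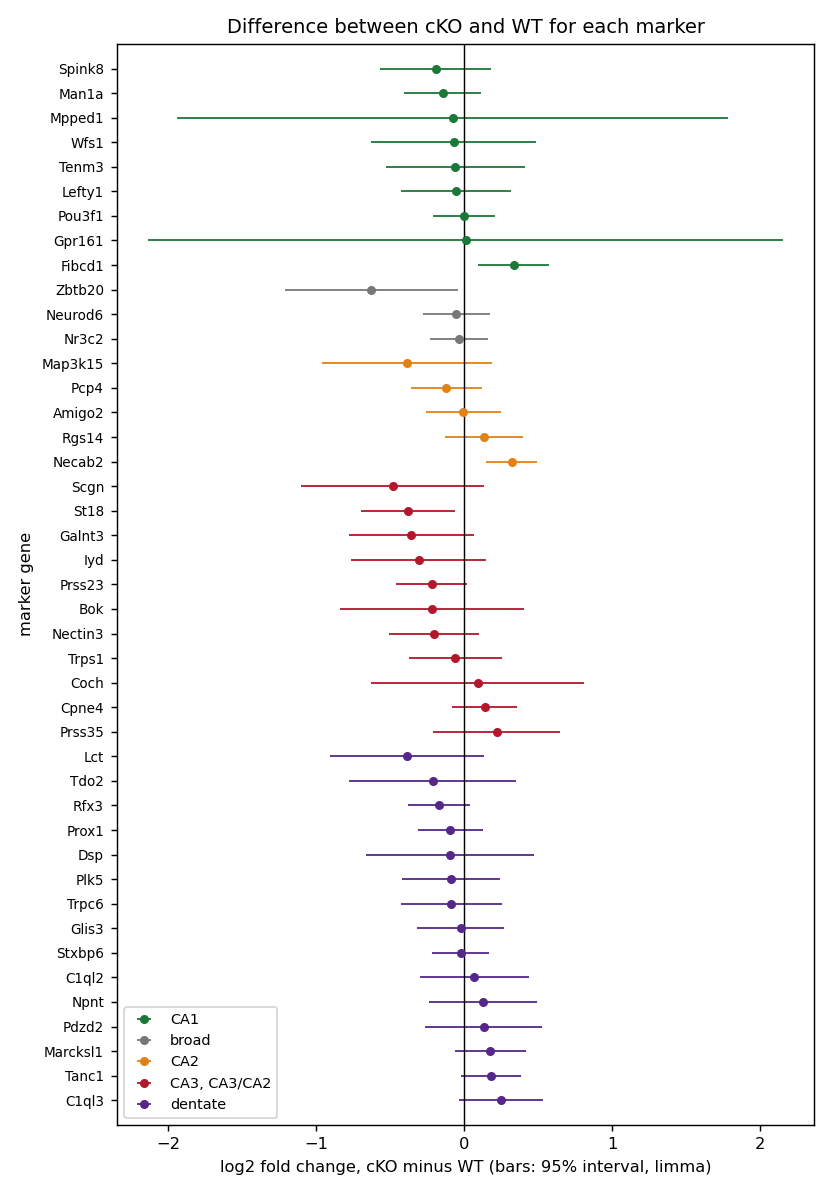
Log2 fold change (cKO minus WT) of each marker, ordered by subfield list, with the 95% interval from limma. Intervals of Fibcd1, Necab2, Zbtb20 and St18 lie to 1 side of 0 before adjustment over all genes, and Gpr161 and Mpped1 have by far the widest intervals.

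The dentate-to-CA1 balance was set per library by the mean log2 value over each list. These means are a description and get no test. The dentate mean was 11.09 ± 0.146 in cKO and 11.11 ± 0.125 in WT (SD, n = 4 each), a difference of −0.017. The CA1 mean was 10.90 ± 0.25 in cKO and 10.93 ± 0.279 in WT, a difference of −0.029. Dentate minus CA1 was 0.191 ± 0.348 in cKO and 0.179 ± 0.260 in WT, so the groups differed by 0.012 on the log2 scale while single libraries spread over 0.845, or 1.80-fold. Among the cKO libraries replicate 3 had the highest balance and replicate 1 the lowest, and among the WT libraries replicate 4 was highest and replicate 2 lowest. Without Gpr161 and Mpped1, a choice made after seeing the data, dentate minus CA1 was 0.252 ± 0.179 in cKO and 0.242 ± 0.151 in WT, over a range of 1.35-fold. The highest cKO library was then replicate 2, at 0.469, with replicate 3 at 0.315 and replicate 1 still lowest at 0.0591. The CA2 mean was 10.60 ± 0.181 in cKO and 10.61 ± 0.111 in WT. The mean of the broadly expressed genes was 13.21 ± 0.120 in cKO and 13.45 ± 0.224 in WT. This difference of −0.240 was the largest of any list, with groups that overlapped. Of its 3 genes, Zbtb20 had a log2 fold change of −0.63, against −0.055 for Neurod6 and −0.037 for Nr3c2.

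The CA3 list was the 1 list whose mean did not overlap between groups. It was 9.45, 9.47, 9.38 and 9.36 in cKO libraries, against 9.68, 9.48, 9.49 and 9.66 in WT libraries. All 4 cKO values were below all 4 WT values, with a difference of −0.162, although cKO replicate 2 and WT replicate 2 were nearly level. The order did not hold for summed normalized reads, which weight abundant genes and were 15512, 13805, 16727 and 15486 in cKO libraries, against 17923, 14150, 16382 and 16197 in WT libraries. No single gene of the 11 had groups that did not overlap. Of 4 further CA3 genes outside the 43 (Grik4, Cdh24, Elavl2 and Kcnq5), 2 were higher and 2 lower in cKO, with a median log2 fold change of 0.022 and 0 past the test.

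**Figure D3:**
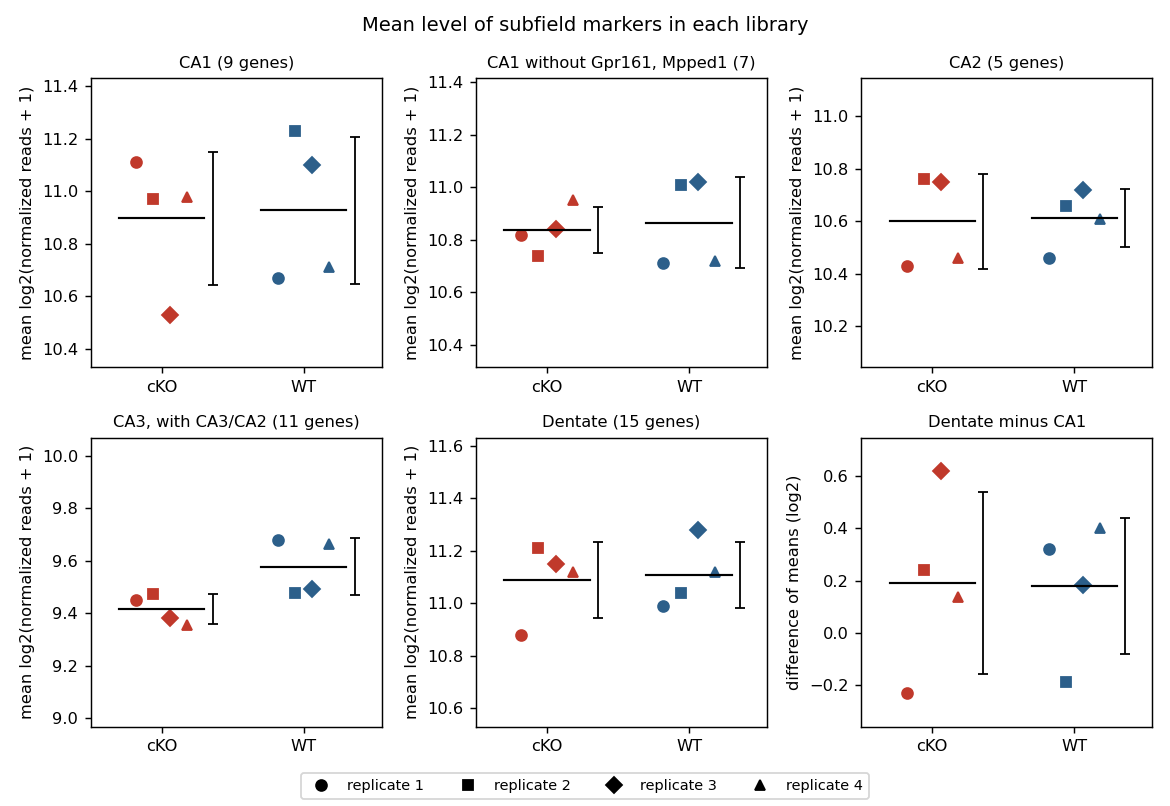
Mean log2(normalized reads + 1) over each marker list in every library, with cKO left of WT, the group mean as a line, the SD as a bar and the replicate number as the symbol. All panels span the same height on the log2 scale, groups overlap in every panel except CA3, and the CA1 spread narrows when Gpr161 and Mpped1 are left out.

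Among the CA1 genes, Fibcd1 was the 1 member with no overlap between groups. It encodes a membrane receptor that binds acetylated sugars, and its expression is a hallmark of CA1 pyramidal neurons. Fibcd1 (ENSMUSG00000026841) had 6350, 5248, 5176 and 5251 normalized reads in cKO libraries, against 3865, 4737, 5043 and 3869 in WT libraries. The lowest cKO value exceeded the highest WT value by a small margin, and cKO replicate 1 stood above the rest. The log2 fold change was 0.34 (SE 0.11, 95% interval 0.095 to 0.58), with an exact permutation p of 0.0286, the smallest that 4 against 4 can give, and a limma adjusted p of 0.496.

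The other CA1 genes overlapped between groups. Wfs1 had 1866, 2312, 3102 and 3399 normalized reads in cKO libraries, against 1751, 3169, 3412 and 2934 in WT libraries, so the groups covered the same range. Man1a, a Golgi mannosidase gene, had 3780, 2715, 2989 and 3840 in cKO libraries, against 3693, 3516, 4010 and 3388 in WT libraries. Pou3f1, a POU-domain transcription factor gene, averaged 2032 ± 135 in cKO and 2040 ± 227 in WT (SD, n = 4 each), with a 95% interval of −0.21 to 0.21 for the log2 fold change. Spink8, a protease inhibitor gene, Lefty1, which encodes a secreted Nodal antagonist, and the teneurin adhesion gene Tenm3 averaged 882, 281 and 3027 in cKO, against 1008, 293 and 3141 in WT. None of these genes had an unadjusted p under 0.05. Of 2 further CA1 genes outside the list, Nov and Dcn, both had positive log2 fold changes (0.27 and 0.091, median 0.18), with 0 past the test.

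Gpr161 and Mpped1 differed far more between libraries of 1 group than between groups. Gpr161 encodes a receptor of the primary cilium that restrains Hedgehog signalling. It had 2879, 1978, 385 and 2699 normalized reads in cKO libraries, against 385, 2422, 2875 and 2153 in WT libraries. A single library in each group, cKO replicate 3 and WT replicate 1, was low, and the other 6 averaged 6.50-fold more. Mpped1, a metallophosphoesterase-domain gene, had 6845, 6201, 1329 and 1717 in cKO libraries, against 5550, 6981, 2438 and 1270 in WT libraries. Here replicates 3 and 4 of both groups were low, and replicates 1 and 2 averaged 3.79-fold more. The low libraries were not the same for the 2 genes apart from cKO replicate 3.

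Genes with the same split as Gpr161 were looked for after its values were seen. Among 16721 tested genes whose log2 values averaged 5 or more, the 2 others lower by over 1 log2 unit in the same 2 libraries were Ahnak and Zbtb12. Ahnak, which encodes a large scaffold protein, had 1347, 1554, 54 and 1522 normalized reads in cKO libraries, against 47, 1277, 1406 and 1380 in WT libraries. No gene had the opposite split by that margin. Mpped1 shared its split with no other gene by that margin. Dcaf6, the opposite-strand neighbour of Gpr161 in GENCODE M21, had 3645 to 4314 in cKO libraries and 3860 to 4368 in WT libraries. Reads on genes were 40330226 in cKO replicate 3, the shallowest library, and 42881048 in WT replicate 1. The part of depth or of read assignment in this split was not tested.

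Promoter sequences are shown for the 2 genes with no overlap between groups, Fibcd1 and Necab2, and for Gpr161, which has 2 start sites in RefSeq lying 6857 bases apart. Each is the 250 bases before a start on the gene's strand, 5′ to 3′, from RefSeq on GRCm38.p6. Capitals mark the E-box CAGATG or its reverse complement CATCTG, letters that neurogenic factors such as Neurod6 can bind and an instance of the general E-box CANNTG. The windows lie at chr2:31846006-31846255 (minus strand) for Fibcd1, chr8:119446469-119446718 (plus strand) for Necab2, and chr1:165295516-165295765 and chr1:165302373-165302622 (plus strand) for the upstream and downstream starts of Gpr161.
Fibcd1: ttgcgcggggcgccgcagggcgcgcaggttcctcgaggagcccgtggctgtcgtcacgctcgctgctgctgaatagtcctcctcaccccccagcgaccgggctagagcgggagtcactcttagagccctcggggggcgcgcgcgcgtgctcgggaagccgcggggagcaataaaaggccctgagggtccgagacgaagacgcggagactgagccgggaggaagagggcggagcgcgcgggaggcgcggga
Necab2: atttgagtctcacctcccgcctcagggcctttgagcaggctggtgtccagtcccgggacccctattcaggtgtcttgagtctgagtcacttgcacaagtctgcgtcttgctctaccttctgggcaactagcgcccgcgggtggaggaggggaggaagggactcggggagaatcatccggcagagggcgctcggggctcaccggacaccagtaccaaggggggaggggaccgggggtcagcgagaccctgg
Gpr161 upstream start: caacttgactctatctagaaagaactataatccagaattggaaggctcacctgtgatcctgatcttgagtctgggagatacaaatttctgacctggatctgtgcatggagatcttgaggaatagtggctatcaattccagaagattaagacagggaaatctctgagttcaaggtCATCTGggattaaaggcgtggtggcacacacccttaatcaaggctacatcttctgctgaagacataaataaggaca
Gpr161 downstream start: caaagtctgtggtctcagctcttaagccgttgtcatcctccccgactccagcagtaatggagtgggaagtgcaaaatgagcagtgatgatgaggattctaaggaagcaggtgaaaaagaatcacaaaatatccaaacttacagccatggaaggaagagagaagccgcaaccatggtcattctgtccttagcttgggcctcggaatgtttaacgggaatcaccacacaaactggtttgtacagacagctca
The Fibcd1 and Necab2 windows were GC-rich, at 71.6% and 64.0%, and the Gpr161 windows were at 42.4% and 46.8%. The searched letters occurred 1 time, in the upstream Gpr161 window, 76 bases before the start. RefSeq promoters were matched for 36 of the 43 members. The letters were in 8.3% of their 48 windows and in 14.4% of all 32851 RefSeq windows of that length. The members whose windows held them were Gpr161, Wfs1, Iyd and Prox1.

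**Figure D4:**
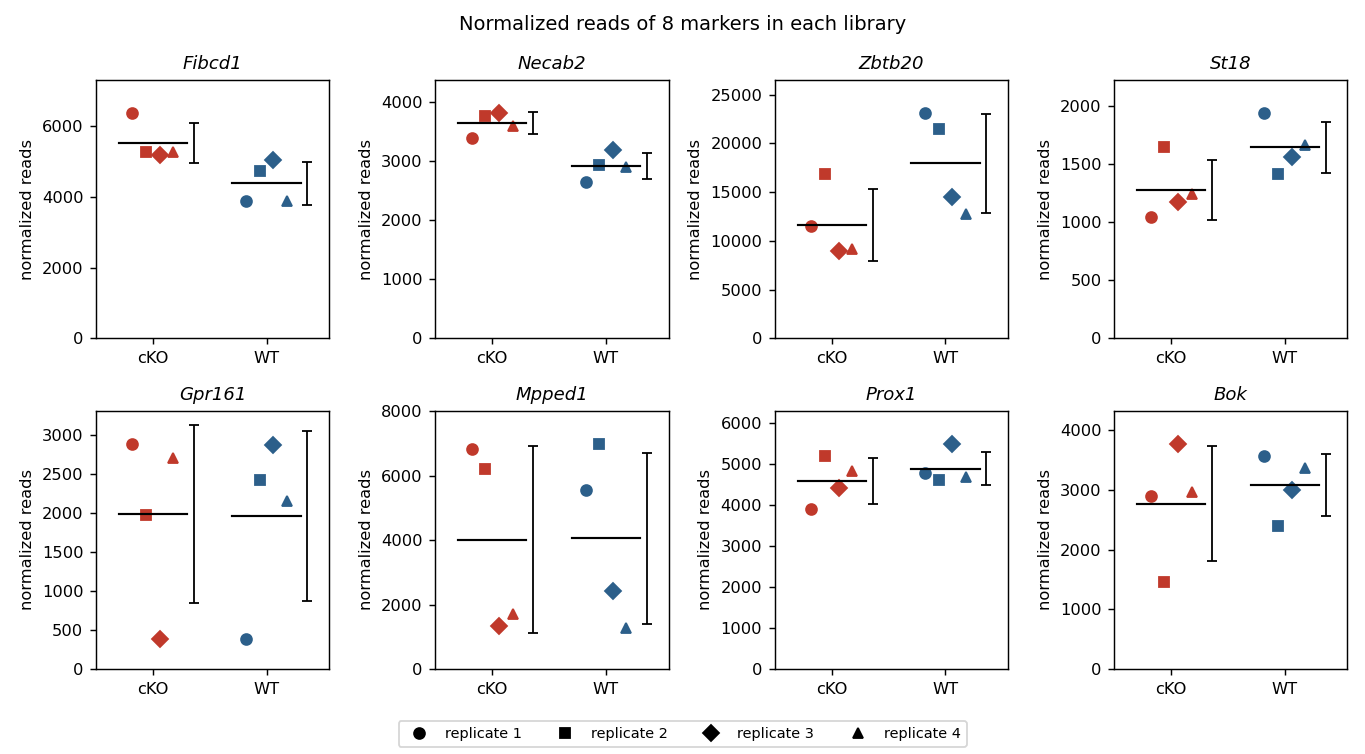
Normalized reads of 8 markers in each library (axes start at 0), with cKO left of WT, the mean as a line, the SD as a bar and the replicate number as the symbol. Fibcd1 and Necab2 are higher in every cKO library, Zbtb20 and St18 overlap between groups, and Gpr161 and Mpped1 fall into high and low libraries within each group.

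Of the broadly expressed genes, Zbtb20 had the largest difference among the 43. It encodes a zinc finger repressor needed for hippocampal identity, above all in CA1. Zbtb20 (ENSMUSG00000022708) had 11553, 16856, 8952 and 9177 normalized reads in cKO libraries, against 23078, 21455, 14458 and 12795 in WT libraries. The cKO mean was 64.8% of the WT mean, but cKO replicate 2 lay above WT replicates 3 and 4. The log2 fold change was −0.63 (SE 0.26, 95% interval −1.21 to −0.04), with an exact permutation p of 0.114 and a limma adjusted p of 0.553. Neurod6, a proneural factor of pyramidal neurons of all CA fields and of cortex, had 12953, 9815, 11808 and 10581 in cKO libraries, against 13197, 12161, 10684 and 10780 in WT libraries. Nr3c2, the mineralocorticoid receptor gene, averaged 6762 ± 144 in cKO and 6977 ± 850 in WT (SD, n = 4 each). The log2 fold change was −0.055 (SE 0.10) for Neurod6 and −0.037 (SE 0.089) for Nr3c2.

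In the CA2 list, Necab2 had the smallest p of all 43 markers. It encodes a neuronal calcium-binding protein. Necab2 (ENSMUSG00000031837) had 3399, 3763, 3809 and 3591 normalized reads in cKO libraries, against 2645, 2936, 3195 and 2900 in WT libraries. The lowest cKO library lay above the highest WT library. The log2 fold change was 0.32 (SE 0.078, 95% interval 0.15 to 0.49), with an exact permutation p of 0.0286. The limma adjusted p was 0.432, and over the alternative settings it ranged from 0.256 to 0.777. The authors' deposited table gives Necab2 a log2 fold change of 0.32 and an FDR of 0.0131.

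The remaining CA2 genes overlapped between groups. Rgs14, whose product restrains synaptic plasticity in CA2, had 3218, 4067, 4160 and 4102 normalized reads in cKO libraries, against 3305, 3490, 4329 and 3096 in WT libraries. Amigo2, an adhesion gene and a defining CA2 marker, had 1036, 960, 1085 and 826 in cKO libraries, against 934, 909, 1153 and 928 in WT libraries. Pcp4, which encodes a small calmodulin-binding protein, had 4305, 5979, 5529 and 4700 in cKO libraries, against 5416, 5197, 5402 and 6146 in WT libraries. All 3 defining genes thus overlapped between groups. Map3k15, a kinase gene with few reads, had 99, 179, 156 and 96 in cKO libraries, against 123, 226, 155 and 181 in WT libraries. Its log2 fold change of −0.38 (SE 0.26) was the largest in size of the CA2 list, with a limma adjusted p of 0.683. Of 4 further CA2 genes (Cacng5, Ntf3, Fgf2 and Avpr1b), 0 passed, with a median log2 fold change of −0.22.

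Within the CA3 list, St18 had the smallest p and Bok, Nectin3 and Iyd are the defining genes. St18, a zinc finger factor gene that oligodendrocytes also express, had 1047, 1647, 1177 and 1240 normalized reads in cKO libraries, against 1938, 1418, 1565 and 1669 in WT libraries. Its log2 fold change was −0.38 (SE 0.14, 95% interval −0.695 to −0.06), with an exact permutation p of 0.0857 and a limma adjusted p of 0.519. Only cKO replicate 2 reached the WT range. The summed normalized reads of 4 oligodendrocyte genes (Mbp, Mog, Mag and Mobp) were 42054, 68158, 55997 and 68701 in cKO libraries, against 80188, 55500, 76516 and 67628 in WT libraries. St18 and this sum shared their lowest library, cKO replicate 1, and their highest, WT replicate 1. All 4 oligodendrocyte genes had negative log2 fold changes, 0 passed, and their part in the St18 or CA3 difference was not tested.

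Bok, a gene of the BCL2 family, had 2902, 1459, 3760 and 2956 normalized reads in cKO libraries, against 3567, 2396, 2988 and 3366 in WT libraries. The low cKO value came from replicate 2, and replicate 3 was above every WT library. Nectin3, a synaptic adhesion gene, had 2920, 1918, 2291 and 1860 in cKO libraries, against 2905, 2319, 2478 and 2526 in WT libraries. Iyd, an iodotyrosine deiodinase gene, had 221, 255, 236 and 165 in cKO libraries, against 376, 208, 271 and 244 in WT libraries. Log2 fold changes were −0.22 for Bok (SE 0.27), −0.21 for Nectin3 (SE 0.14) and −0.31 for Iyd (SE 0.21), with 0 of 3 past the test.

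Among the other CA3 genes, values near the WT level or above it stood beside lower ones. Prss23, a serine protease gene, had 816, 822, 648 and 855 normalized reads in cKO libraries, against 883, 989, 853 and 921 in WT libraries. Its groups met at 1 value only, cKO replicate 4 against WT replicate 3. Scgn, which encodes the calcium sensor secretagogin, had 69, 85, 45 and 43 in cKO libraries, against 95, 84, 59 and 93 in WT libraries. Coch, the cochlin gene, had 232, 352, 227 and 361 in cKO libraries, against 140, 395, 234 and 400 in WT libraries, with replicate 1 low in WT. Galnt3, a glycosyltransferase gene, averaged 210 ± 50.2 in cKO and 265 ± 35.0 in WT (SD, n = 4 each). The related protease gene Prss35 averaged 366 ± 19.9 and 324 ± 93.0, and the copine gene Cpne4 5354 ± 470 and 4872 ± 574. Trps1, a GATA-type repressor gene, averaged 1800 ± 370 in cKO and 1857 ± 210 in WT.

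The dentate genes showed no unadjusted p under 0.05 at any of 15 members. Prox1 (ENSMUSG00000010175) had 3891, 5193, 4399 and 4835 normalized reads in cKO libraries, against 4768, 4596, 5474 and 4683 in WT libraries. The lowest value was in cKO replicate 1 and the highest in WT replicate 3. The log2 fold change was −0.10 (SE 0.099, 95% interval −0.32 to 0.12). C1ql2, which encodes a secreted synaptic organizer of mossy fibres, had 2322, 2727, 3000 and 2073 in cKO libraries, against 1849, 2269, 3218 and 2412 in WT libraries. Its relative C1ql3 had 4397, 4936, 5517 and 5421 in cKO libraries, against 3578, 3760, 5276 and 4595 in WT libraries. Dsp, the desmoplakin gene, had 1047, 2320, 1431 and 1803 in cKO libraries, against 1338, 1558, 2395 and 1634 in WT libraries. For Prox1 and Dsp alike, cKO replicate 1 was the lowest library and WT replicate 3 the highest.

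Lct, the lactase gene, had 833, 892, 1271 and 1669 normalized reads in cKO libraries, against 1143, 1458, 1983 and 1402 in WT libraries. Tdo2, a tryptophan dioxygenase gene, had 387, 831, 411 and 337 in cKO libraries, against 627, 525, 423 and 581 in WT libraries, and cKO replicate 2 was the highest. Tanc1, a postsynaptic scaffold gene, had 5024, 5749, 5115 and 6141 in cKO libraries, against 4287, 5026, 5335 and 4793 in WT libraries. These 3 genes placed different libraries at the top, although all are listed for the dentate gyrus. Of the other 8 members, Marcksl1 (log2 fold change 0.18, SE 0.11), Pdzd2 (0.13, SE 0.18) and Npnt (0.13, SE 0.16) were positive. Rfx3 (−0.17, SE 0.094), Plk5 (−0.092, SE 0.15), Trpc6 (−0.087, SE 0.15), Glis3 (−0.025, SE 0.13) and Stxbp6 (−0.024, SE 0.087) were negative. They encode, among others, the ciliogenic factor RFX3, the matrix protein nephronectin (Npnt) and the cation channel TRPC6. Of 7 further dentate genes, 6 were higher in cKO, with a median log2 fold change of 0.18 and 0 past the test.

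Across libraries, the dentate list marked 2 that stood at its ends. In cKO replicate 1, 1 of 15 dentate members was above its 8-library mean, and in WT replicate 3 it was 14 of 15. The dentate mean deviated by −0.221 and 0.179 log2 units in these libraries. In cKO replicate 2, 11 of 15 were above, in cKO replicate 3 it was 7 and in cKO replicate 4 it was 10. In WT replicates 1, 2 and 4 the counts were 6, 6 and 7. For CA3, WT replicate 1 had 10 of 11 members above the mean and WT replicate 4 had 9. For CA1, WT replicate 2 had 8 of 9 members above the mean and WT replicate 4 had 2 of 9. WT replicate 3 was the highest library at 11 of the 43 markers and the lowest at 0. In it 33 of the 43 markers were above their mean, so its high values were not particular to the dentate list. Its CA1 mean deviated by 0.183, and dentate minus CA1 by only −0.0039. In cKO replicate 1, 14 of the 43 markers were above their mean. The CA1 mean there deviated by 0.194, but by −0.033 without Gpr161 and Mpped1. Dentate minus CA1 deviated by −0.41, or by −0.188 without Gpr161 and Mpped1.

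**Figure D5:**
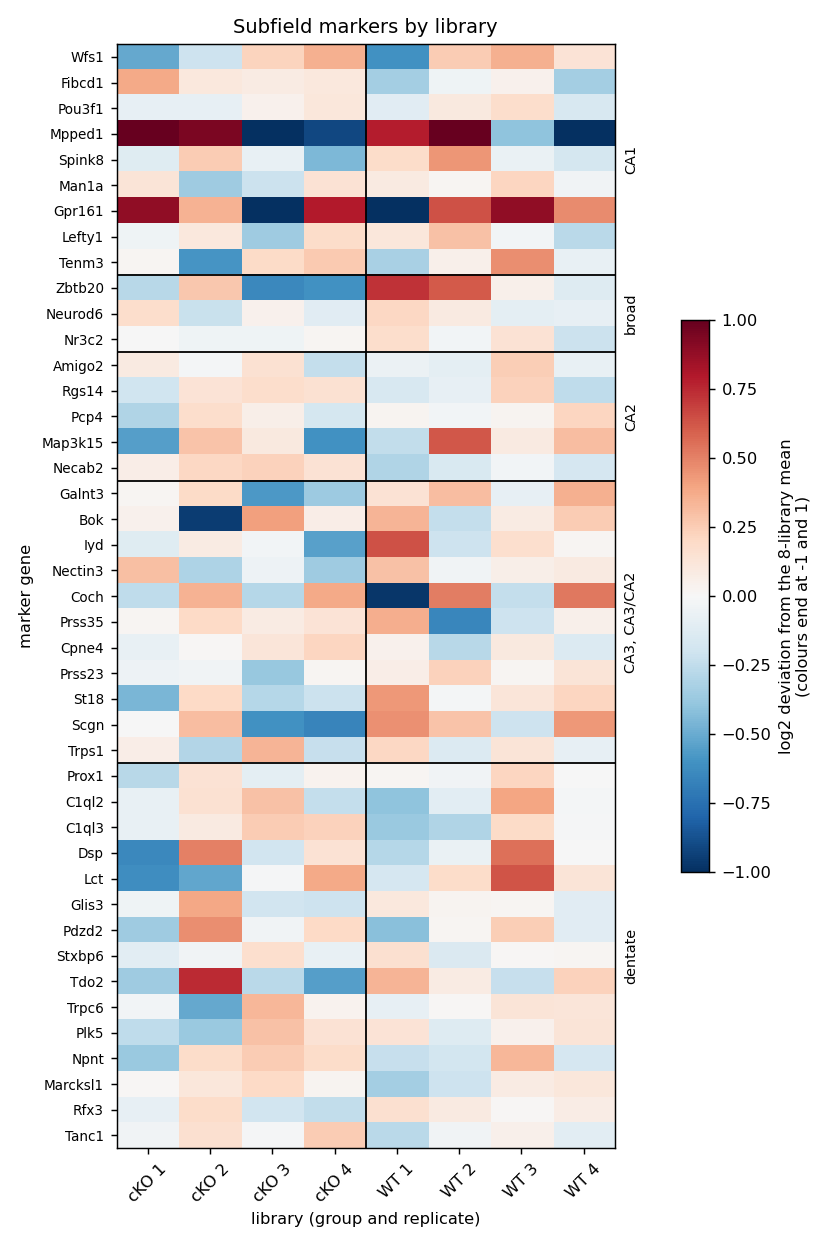
Log2 deviation of each marker (rows) from its mean over 8 libraries (columns, cKO left of WT), with colours ending at −1 and 1. The dentate block is mostly blue in cKO replicate 1 and red in WT replicate 3, and the deepest colours belong to Mpped1 and Gpr161.

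By median, members varied more within groups than other well-expressed genes, though the CA2 list varied less. The 2 sets were not matched for expression level. The median within-group SD of log2 values was 0.24 over the 43 markers, beside 0.20 over the 16721 tested genes whose log2 values averaged 5 or more. By list it was 0.28 for CA1, 0.17 for CA2, 0.28 for CA3 and 0.24 for the dentate list. The median Pearson correlation over the 8 libraries, as a description of pairs that share libraries and size factors, was 0.20 among the 105 dentate pairs, 0.24 among the 36 CA1 pairs, 0.097 among the 10 CA2 pairs and 0.0905 among the 55 CA3 pairs. Between dentate and CA1 genes it was −0.0090 over 135 pairs, and between CA2 and dentate genes 0.23 over 75 pairs.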

How the data were processed

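RNA-seq of hippocampal tissue labelled CA1 gave 8 libraries, made by Trizol extraction and a stranded mRNA kit, per the labels' protocols. STAR, StringTie and DESeq2 were used with build mm9, per the submitters' processing notes; the sources used here give no versions, annotation or strand setting. The authors deposited log2 values per library. Raising 2 to the power of a value and subtracting 1 gave normalized reads. Dividing these by the library's value of 1 read gave whole reads at 100% of values. That value was the smallest step, refined by a median over genes with intermediate reads. The tolerance was 0.001 reads, and proportionally wider for genes with the most reads. The deposited table also holds the authors' fold change (log2), p-value and FDR.

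The 4 cKO and 4 WT libraries were compared with limma (version 3.58.1, R version 4.3.3) without covariates, using robust moderation and a trend, on the authors' log2 scale with its pseudocount of 1. A gene entered when 4 or more libraries reached 1 normalized read (26135 genes), with Benjamini-Hochberg adjustment and a threshold of 0.05. All 43 markers were among them. Exact permutation tests are two-sided. The procedure was tested on simulated counts drawn independently for each gene and library. Beyond depth, these held no shifts shared by the genes of a library, such as dissection can give.

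Members and lists were chosen with earlier results of these data known. Described in every library are 26 genes. They are defining markers, members whose groups do not overlap, the 2 per list with the smallest p and the 2 with the largest SD. The rest are given by means or by log2 fold changes with SE. Some planned genes of the lists beside the 43 are not reported here. Assignment to subfields follows textbook markers, and several of the CA3 list also mark CA2. edgeR and TMM factors, planned as alternatives, were not run. In their place stands limma-voom on the recovered reads with the authors' size factors, chosen after seeing the file. Lengths came from GENCODE M21 (GRCm38), which is not the build named for the files, so no file coordinates are given. Figures were drawn with matplotlib 3.10.9.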

Additional observations from a re-analysis of the deposited data

Results flagged for a closer look

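In each group of 4, a library was marked where its gap to the nearest other was a larger part of the group's range than Dixon's 95% critical value. Among 98 groups of values checked, 7 were so marked, where chance marks about 1 in 20. Fibcd1 was high in cKO replicate 1, with 6350 normalized reads against 5176 to 5251 in the other cKO libraries. Gpr161 was low in WT replicate 1, with 385 against 2153 to 2875 in the other WT libraries. Amigo2 was high in WT replicate 3, with 1153 against 909 to 934. Rgs14 was low in cKO replicate 1, with 3218 against 4067 to 4160. Prss23 was low in cKO replicate 3, with 648 against 816 to 855. Npnt was low in cKO replicate 1, with 957 against 1402 to 1475, and high in WT replicate 3, with 1555 against 1052 to 1100. The Npnt libraries are the same as those at the low and high end of the dentate list, which itself includes Npnt.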

How the results depend on the processing

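No marker passed the limma test over all genes under any of the 16 alternatives run (lowest adjusted p 0.256). The number of all genes past it was 5, and 8 with array weights or 2 with the replicate block, under which 0 of the 43 markers passed. Deviations of same-numbered libraries correlated by −0.040 to 0.029 over all tested genes, a value that does not describe single genes. With the replicate block the SE fell from 0.783 to 0.214 for Mpped1 and from 0.256 to 0.109 for Zbtb20. It rose from 0.901 to 1.02 for Gpr161 and from 0.143 to 0.166 for St18. A link between same-numbered libraries was not tested. edgeR and TMM factors were not run. Leaving out each library gave 4 to 7 genes. The sign of the log2 fold change turned in 52 of 688 values, at 19 markers with a size of at most 0.22 in the full comparison; the cause was not tested. With array weights it became 0.035 for Pou3f1, −0.37 for Gpr161, 0.023 for Tenm3, 0.017 for Nr3c2, 0.027 for Amigo2, −0.12 for Coch, 0.027 for Trps1 and 0.0058 for Stxbp6, and for Gpr161 −0.018 with quantile normalization and −0.0082 with library totals. Leaving out 1 library at a time gave ranges of −0.29 to 0.087 for Wfs1, −0.054 to 0.057 for Pou3f1, −0.54 to 0.34 for Mpped1, −0.66 to 0.68 for Gpr161, −0.15 to 0.053 for Lefty1, −0.18 to 0.13 for Tenm3, −0.12 to 0.0099 for Neurod6, −0.12 to 0.016 for Nr3c2, −0.060 to 0.073 for Amigo2, −0.39 to 0.064 for Bok, −0.22 to 0.28 for Coch, −0.18 to 0.027 for Trps1, −0.055 to 0.21 for C1ql2, −0.28 to 0.10 for Dsp, −0.16 to 0.040 for Glis3, -5.99e-05 to 0.27 for Pdzd2, −0.085 to 0.024 for Stxbp6, −0.21 to 0.069 for Trpc6 and −0.20 to 0.016 for Plk5. The CA2 difference was −0.012 by the mean over members and 0.30 by the median. For 5 genes the median rests on the middle gene, Necab2 in every library but cKO replicate 1, where it was Rgs14. The CA3 difference was −0.070 by log2 of summed reads. Without 1 library the CA3 difference ranged from −0.20 to −0.13 and dentate minus CA1 from −0.13 to 0.15. Depth differed 1.24-fold between libraries and limits markers with few reads, such as Scgn and Map3k15.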
